A study of Mus musculus with 6 samples.

Results

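*Synpo2*, the gene whose intron gave the long noncoding RNA *SYISL* its name, and 9 genes listed as its neighbours were followed in leg muscle of mouse fetuses at embryonic day 18.5. *SYISL* stands for Synaptopodin-2 intron sense-overlapping lncRNA. The 10 genes, *Synpo2*, *Myoz2*, *Usp53*, *Fabp2*, *Pde5a*, *Sec24d*, *Mettl14*, *Prss12*, *Ndst3* and *Mad2l1*, were taken from 56262 genes in the deposited count table, to look for changes near the deleted locus. GENCODE release M21 places 9 of them on chromosome 3 of mm10. *Mad2l1* lies on chromosome 6 (66535390 to 66547220, plus strand), so it is not a neighbour of *Synpo2* and is described as a gene on another chromosome.

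Bulk RNA-seq compared 3 wild-type (WT) with 3 *SYISL* knockout (KO) samples of leg muscle. Dams were mated with males of their own genotype, so WT and KO fetuses came from different mothers, and fetal genotype and maternal genotype cannot be told apart. The KO line comes from an earlier study, and the sources used here give neither the deleted bases nor whether a library holds 1 fetus or a pool. Nothing says that the 3 samples of a genotype came from separate litters, so the p-values measure the spread between these samples only.

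The libraries held 82054811 to 102233181 counts, at which 3 counts equal 0.0293 to 0.0366 CPM when counts are scaled to these totals. The CPM values of genes below are scaled to totals adjusted by TMM factors of 0.963 to 1.03. Muscle fibre markers were present in every library, and all 10 of them rose in KO, from a summed 13098 to 14314 CPM in WT to 28137 to 36099 CPM in KO (median log2 fold change 1.24). All 8 keratinocyte markers, led by *Krt1*, *Krt10*, *Lor* and *Krt5*, fell in KO, from a summed 15506 to 23145 CPM to 687 to 791 CPM (median -3.02). The summed level of 4 Y-linked genes was below 0.08 CPM in WT replicate 2 and KO replicate 1 and 64.2 to 166 CPM in the other libraries. In bulk tissue, fewer cells of a type and less RNA per cell cannot be told apart, which holds for every gene below.

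Synaptopodin-2, or myopodin, is an actin-binding protein of the Z-disc, the plate that anchors the thin filaments of neighbouring sarcomeres. It binds alpha-actinin and filamin C and takes part, with BAG3 and HSPB8, in the removal of damaged filamin. Myozenin-2, also called calsarcin-1, sits in the same plate, binds alpha-actinin, telethonin and the phosphatase calcineurin, and is typical of slow and cardiac muscle. A long noncoding RNA can act in cis, on genes near the place where it is made, or in trans, elsewhere in the cell. A cis effect would be sought first among its neighbours.

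The primers with which the study measured *SYISL* by RT-qPCR were placed on the GENCODE M21 transcripts, because their position decides what a count for *Synpo2* contains. They are shown 5′ to 3′, and the capital marks the base that differs from the transcript.
SYISL forward primer: ctcgtggtccctccctgTaa
SYISL reverse primer: gtctgcgtgctcctgtggtt
The reverse primer matched *Synpo2-201* and *Synpo2-207* over all 20 bases, at chr3:123111480-123111499. The forward primer matched no transcript over all its bases. Sites with 1 mismatch were sought in *Synpo2* transcripts only. There it matched the same 2 transcripts with 1 mismatch, T18G, at chr3:123111722-123111741. The position counts from 1 at the primer's 5′ end, and the primer's base comes first. Both matches lie in transcripts of the minus strand, the strand of *Synpo2*, and together span 262 bases. The forward primer reads in the direction of these transcripts, and the reverse primer matched as its reverse complement.

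The stretch between the primers falls in the last exon of these 2 transcripts, 8024 bases long (123106603 to 123114626), within its annotated 3′ UTR. In 4 of the other annotated transcripts, among them *Synpo2-202* and *Synpo2-203*, it falls in an intron, and 1 transcript does not reach it. Where the counting used an annotation with this exon, reads from the *SYISL* stretch were counted for *Synpo2*, and a count per gene cannot tell one RNA from the other. The sources used here do not name the annotation, and they do not state the strand setting of the counting. The level of *SYISL* itself, the targeted gene, was therefore not measured apart from *Synpo2*.

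**Figure D1:**
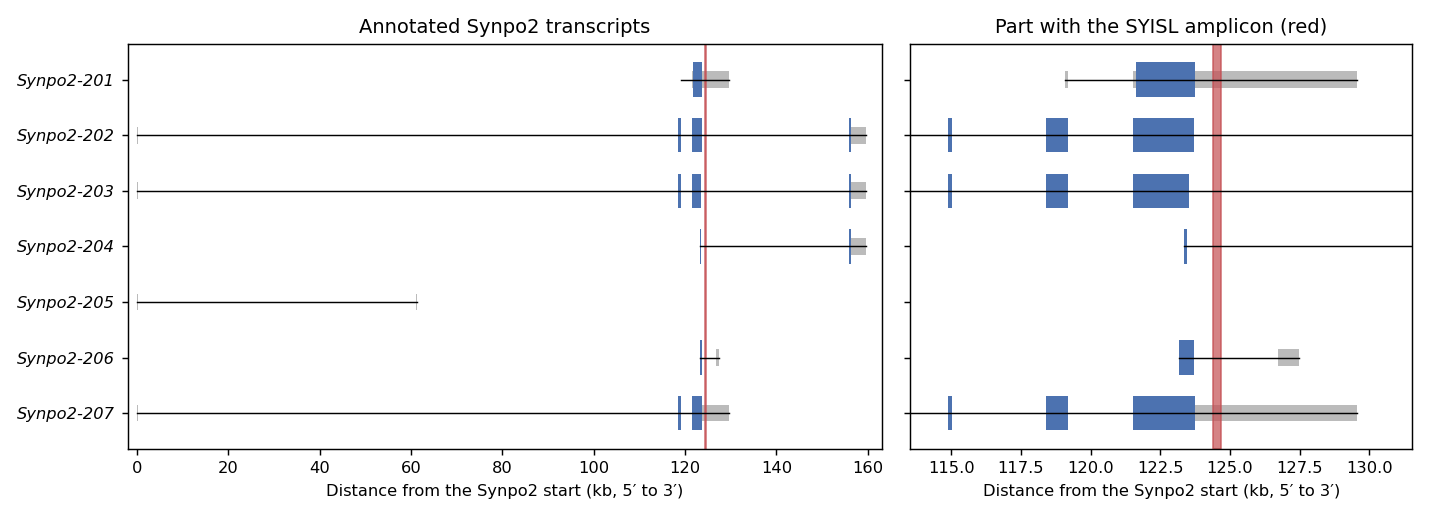
The 7 annotated *Synpo2* transcripts drawn to scale against the distance from the start of the gene in kb, with the whole gene on the left and an enlarged part on the right. Thin grey boxes are exons, tall blue boxes coding sequence and black lines introns, and the red band is the 262-base stretch between the *SYISL* primers, which lies in the long last exon of *Synpo2-201* and *Synpo2-207*.

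*Synpo2* (ENSMUSG00000050315.14, chromosome 3, 123076519 to 123236149, minus strand) stood at 137, 131 and 139 CPM in the WT libraries and at 193, 219.9 and 229 CPM in the KO libraries. Every KO library was above every WT library. These counts may hold reads of the *SYISL* stretch described above, and whether KO lost such reads was not tested. The level rose from 136 ± 4.21 to 214 ± 18.9 CPM (SD over 3 libraries a group), which is a log2 fold change of 0.66 (standard error, SE, 0.063, by the edgeR quasi-likelihood test with Benjamini-Hochberg adjustment, adjusted p = 2.89e-05). *Synpo2* passed in all 17 alternatives the call used here, for which the adjusted p had to be below 0.05 and the fold above 1.5, and which 16.7% of the 22071 genes tested passed. Of the genes annotated inside it, *Gm43744*, *Gm43287* and *Gm43283* had at most 2 counts in any library and share no exon base with it. The genes that overlap the other members without a shared exon base, *4933405D12Rik*, *Gm22066*, *Gm43590* and *Gm42510*, had at most 16.

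*Myoz2* (ENSMUSG00000028116.13, 123006206 to 123035015, minus strand) is the next tested gene downstream of *Synpo2*, 41.5 kb away. It stood at 93.5, 92.6 and 97.2 CPM in WT and at 181, 244 and 235 CPM in KO. The WT libraries lay close together, and the lowest KO library was far above them. *Myoz2* rose from 94.4 ± 2.44 to 220.2 ± 34.1 CPM (SD over 3 libraries a group), which is a log2 fold change of 1.22 (SE 0.097, edgeR adjusted p = 8.24e-06), and this was the largest rise among the 10 genes.

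**Figure D2:**
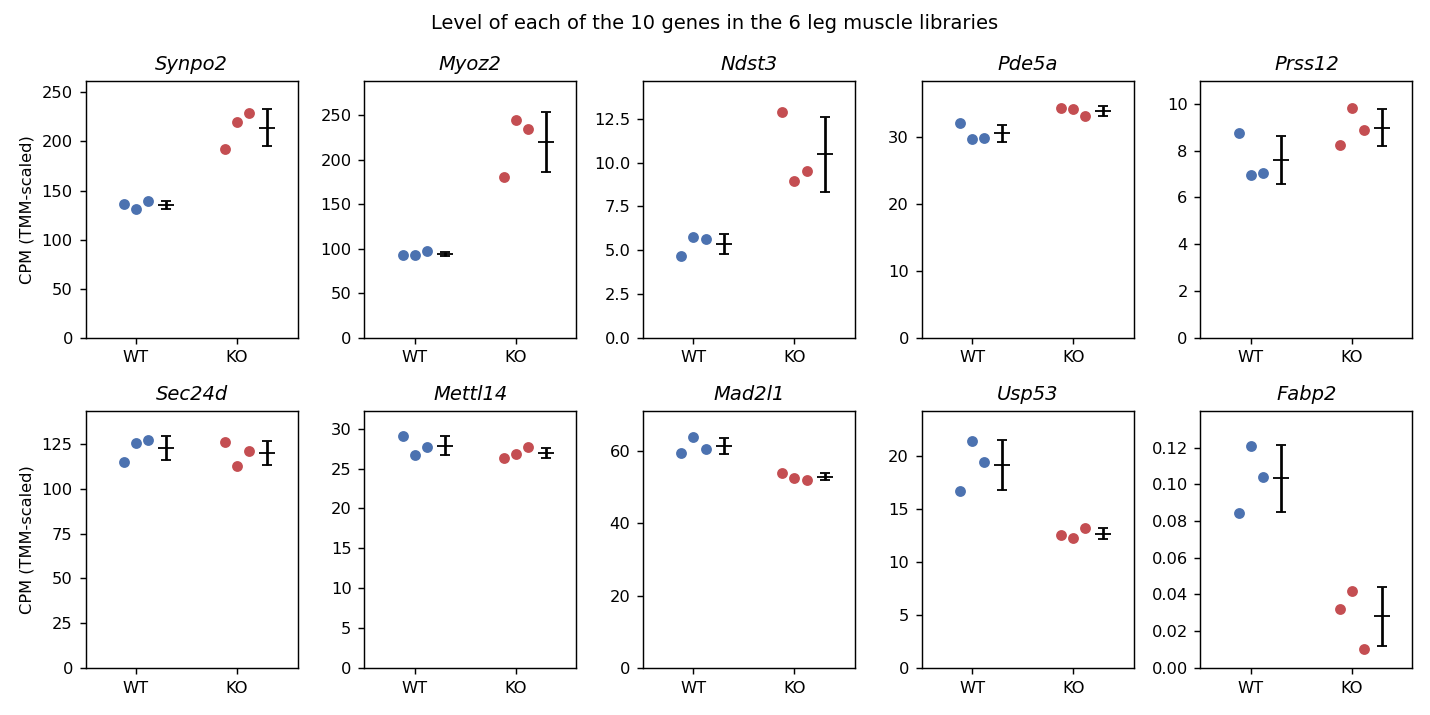
Level of each of the 10 genes in CPM, on an axis that starts at 0 in each panel, with the 3 WT libraries in blue and the 3 KO libraries in red, replicates 1 to 3 from left to right. The black mark and bar beside each group are the mean and SD, and WT and KO points do not overlap for *Synpo2*, *Myoz2*, *Ndst3*, *Pde5a*, *Mad2l1*, *Usp53* and *Fabp2*.

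KO replicate 1 was the lowest of the KO libraries for *Synpo2*, *Myoz2* and the fibre sum alike, and WT replicate 2 the lowest of WT. The orders differed otherwise. In WT the fibre sum was highest in replicate 1, and both Z-disc genes in replicate 3. In KO the fibre sum and *Myoz2* were highest in replicate 2, and *Synpo2* in replicate 3. Relative to the summed CPM of the 10 fibre markers in the same library, *Synpo2* was lower in KO by a log2 difference of -0.59, in 3 of 3 KO libraries, and by -0.33 where the median log2 CPM of the list replaced the sum. The two-sided exact permutation test gave p = 0.1 for both, the smallest p that 3 against 3 libraries allow. The ratio of *Myoz2* to the same sum differed by -0.04 (exact permutation p = 0.4), and by 0.22 (exact permutation p = 0.1) with the median of the list. The part of fibre content in the rise of either gene was not tested. Nor was the part of reads from the *SYISL* stretch in the rise of *Synpo2* or in its lower ratio.

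**Figure D3:**
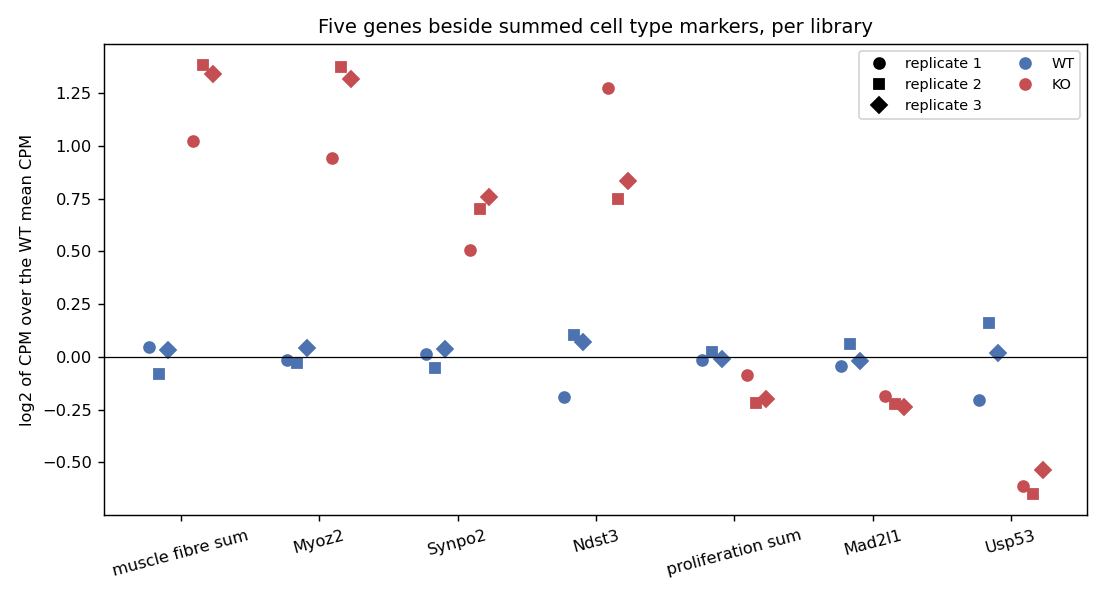
Level of 5 of the genes and of 2 marker sums in each library, as log2 of the CPM over the mean CPM of the 3 WT libraries, with WT in blue, KO in red and a symbol for each replicate. *Myoz2* lies at about the height of the muscle fibre sum in the KO libraries, *Synpo2* below it, and *Mad2l1* beside the proliferation sum.

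The 250 bases before the start of each gene were searched on both strands for letters known from muscle promoters, and the sequences of *Synpo2* and *Myoz2* are shown because of the entries found these 2 alone held a MEF2 site. They come from RefSeq (GRCm38.p6), both on the minus strand, chr3:123236150-123236399 for *Synpo2* and chr3:123034988-123035237 for *Myoz2*. Capitals mark the MEF2 site, the AT-rich element bound by the MEF2 factors of muscle.
Synpo2: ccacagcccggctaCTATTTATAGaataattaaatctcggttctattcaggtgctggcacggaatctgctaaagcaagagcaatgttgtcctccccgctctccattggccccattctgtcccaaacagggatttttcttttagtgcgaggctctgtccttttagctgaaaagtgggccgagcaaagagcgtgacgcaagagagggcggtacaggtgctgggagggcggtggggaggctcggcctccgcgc
Myoz2: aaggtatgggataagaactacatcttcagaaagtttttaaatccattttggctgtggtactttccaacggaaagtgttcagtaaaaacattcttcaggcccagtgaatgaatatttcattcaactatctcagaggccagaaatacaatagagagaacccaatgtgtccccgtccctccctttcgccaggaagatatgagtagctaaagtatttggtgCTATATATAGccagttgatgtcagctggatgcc

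The site begins 236 bases before the start of *Synpo2* and 33 bases before that of *Myoz2*. Of 32851 promoters searched in the same way, 2.92% held a MEF2 site and 1.47% a CArG box, the element bound by serum response factor, which none of the members' promoters held. An E-box (CANNTG), bound by MyoD and its relatives, was held by 66.2% of all promoters, and 2 of them stood in the *Synpo2* and 2 in the *Myoz2* sequence. Promoter entries were found for 8 of the 10 genes, with 2 entries for *Ndst3*, and for neither *Usp53* nor *Mettl14*. These matches describe the letters of the windows only.

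The relatives and partners of both proteins were read from lists. *Synpo2l* and *Synpo*, the 2 other synaptopodin genes, rose below the fold threshold, by log2 fold changes of 0.52 (SE 0.050, edgeR adjusted p = 2.92e-05) and 0.46 (SE 0.040, edgeR adjusted p = 1.70e-05). The median of 10 partners of synaptopodin-2 was 0.037, against -0.0041 over all genes tested. Of the 10, 2 were called higher and 0 lower, where 8.31% of all genes tested were called higher and 8.39% lower (16.7% in all). These were *Actn2*, a Z-disc alpha-actinin, at 0.70 and the small heat shock protein gene *Hspb8* at 0.67. With no fold threshold, 4 of the 10 partners passed upwards and 1 downwards, where 21.9% of all genes tested passed upwards and 23.1% downwards (45.0% in all).

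Of 10 relatives and partners of calsarcin-1, 6 were called higher and 0 lower, where 8.31% of all genes tested were called higher. All 10 passed upwards with no fold threshold (median 0.76), where 21.9% of all genes tested did. The 4 most abundant of the 6 were *Actn2*, the Z-disc protein gene *Ldb3* at 0.83, the fast-fibre calsarcin gene *Myoz1* at 1.56 and the fast-fibre alpha-actinin gene *Actn3* at 2.59. The other two, named after their values were seen, were *Tcap*, which encodes telethonin, at 1.80 and *Myoz3* at 1.33. *Myoz1* and *Myoz3* lie on chromosomes 14 and 18. The library-size scaling left 8 of the 10 past the adjusted p.

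*Ndst3* (ENSMUSG00000027977.15, 123526166 to 123690853, minus strand) encodes an N-deacetylase and N-sulfotransferase that modifies heparan sulfate chains. It lies 290 kb upstream of *Synpo2*. Its level was 4.68, 5.75 and 5.61 CPM in WT and 12.9, 8.97 and 9.53 CPM in KO. The groups did not overlap, and KO replicate 1, the lowest KO library for the Z-disc genes, was the highest here. *Ndst3* rose from 5.35 ± 0.581 to 10.5 ± 2.13 CPM (SD over 3 libraries a group), which is a log2 fold change of 0.97 (SE 0.14, edgeR adjusted p = 0.000405), and by 0.80 without KO replicate 1. Of the 3 other NDST genes, 0 were called. *Ndst2* passed the adjusted p alone (log2 fold change 0.19, SE 0.057, edgeR adjusted p = 0.0213), and *Ndst1* had -0.13.

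*Usp53* (ENSMUSG00000039701.11, 122931493 to 122984510, minus strand), 92.0 kb from *Synpo2* on the far side of *Myoz2*, encodes a member of the ubiquitin-specific peptidase family found at tight junctions. It stood at 16.6, 21.4 and 19.4 CPM in WT and at 12.5, 12.2 and 13.2 CPM in KO. Each KO library was below each WT library. *Usp53* fell from 19.1 ± 2.38 to 12.6 ± 0.503 CPM (SD over 3 libraries a group), which is a log2 fold change of -0.60 (SE 0.088, edgeR adjusted p = 0.000472).

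This fall was just past the fold threshold, a log2 value of 0.585. The call ended with upper-quartile factors (-0.53) and without WT replicate 2 (-0.51), KO replicate 1 (-0.584) or KO replicate 2 (-0.57), while the adjusted p stayed under the threshold in all 17 alternatives. The WT libraries stood in the same order for *Usp53* as for the keratinocyte sum, which was 15506, 23145 and 17307 CPM in WT replicates 1 to 3. The KO libraries did not. Their sum was 687, 791 and 748 CPM, highest in KO replicate 2, where *Usp53* was lowest. The part of keratinocyte RNA in the fall was not tested. *Usp54*, the closest relative of *Usp53*, had a log2 difference of -0.015 (SE 0.040, edgeR adjusted p = 0.793).

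*Fabp2* (ENSMUSG00000023057.5, 122895072 to 122899506, plus strand) encodes the fatty acid-binding protein of the intestinal epithelium, and it was nearly silent. It had 8, 10 and 11 counts in the WT libraries and 3, 4 and 1 in the KO libraries, so it did not pass the filter on low counts and was not among the 9 members tested. The ratio of KO to WT over the summed counts, 8 against 29, was 0.273, with an exact 95% interval of 0.108 to 0.611 that covers counting error only. With no filter its log2 fold change was -1.83 (edgeR adjusted p = 0.0190), and DESeq2 gave an adjusted p of 0.0724.

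Among enterocyte markers, *Fabp1* and *Sis* were at or near 0 and the summed level was 1.41 to 2.06 CPM in WT and 0.894 to 1.06 CPM in KO. Of the 3 that were tested, *Lct*, the gene of lactase, was called lower (log2 fold change -1.34, SE 0.19, edgeR adjusted p = 0.000390), and *Vil1*, higher in each KO library, did not pass (0.47, edgeR adjusted p = 0.0856). Of the other fatty acid-binding protein genes, *Fabp4* of adipocytes (log2 fold change 1.18) and *Fabp3* of muscle (0.80) were called higher, and *Fabp5*, abundant in epidermis, was called lower (-2.36).

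*Pde5a* (ENSMUSG00000053965.10, 122728947 to 122859374, plus strand), 217 kb from *Synpo2*, encodes the phosphodiesterase that breaks down cyclic GMP in smooth muscle. It stood at 32.1, 29.8 and 29.9 CPM in WT and at 34.4, 34.3 and 33.1 CPM in KO. The groups were apart by a narrow gap. The log2 fold change was 0.15 (SE 0.045, edgeR adjusted p = 0.0241), below the fold threshold, and the adjusted p was lost in 5 of 17 alternatives, among them library size alone (0.08, adjusted p = 0.255). Its antisense neighbour *4930447N08Rik* shares 55 exon bases with it but had at most 12 counts in any library.

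Among 10 other genes of cyclic GMP synthesis and response, 1 was called, where 16.7% of all genes tested were. It was *Nos1*, the nitric oxide synthase of muscle and nerve (log2 fold change 0.71, SE 0.063, edgeR adjusted p = 1.68e-05). With no fold threshold, 8 of the 10 passed upwards and 1 downwards, and with library size alone 5 and 1, beside 21.9% upwards and 23.1% downwards over all genes in the TMM-scaled fit. Of 6 smooth muscle markers, *Myh11* was called higher (1.07) and 0 were called lower. That is 16.7% of the 6, the same share as over all genes tested. With no fold threshold 3 passed upwards and 1 downwards, the most abundant one, *Acta2* (-0.19, edgeR adjusted p = 0.0121), and their summed level was 683 to 689 CPM in WT and 697 to 729 CPM in KO.

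*Prss12* (ENSMUSG00000027978.9, 123446913 to 123506597, plus strand) encodes neurotrypsin, a protease that cleaves agrin at synapses. Its level was 8.76, 6.95 and 7.06 CPM in WT and 8.25, 9.81 and 8.89 CPM in KO. The groups overlapped through WT replicate 1. The log2 fold change of 0.24 (95% interval 0.01 to 0.48, edgeR adjusted p = 0.0835) did not pass, but passed the adjusted p in 3 of 17 alternatives, among them without WT replicate 1 (0.36). *Gm35065*, on the opposite strand, shares 157 exon bases with it and had at most 14 counts.

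*Sec24d* (ENSMUSG00000039234.11, 123267455 to 123365641, plus strand) starts 31.3 kb from the start of *Synpo2*, on the opposite strand, which makes it the nearest tested gene. It encodes a cargo adaptor of the COPII coat, which carries proteins such as procollagen out of the endoplasmic reticulum. Its level was 115, 126 and 127 CPM in WT and 126, 113 and 121 CPM in KO, and the groups overlapped. The log2 fold change was -0.03 (95% interval -0.16 to 0.09, edgeR adjusted p = 0.674). Its sign turned with upper-quartile factors and without KO replicate 2. Of 9 other COPII genes, 0 were called. With no fold threshold, 0 passed upwards and 2 downwards, beside 21.9% and 23.1% of all genes tested. These counts were 1 and 1 with upper-quartile factors, and 0 and 5 with library size alone. The most abundant COPII genes, *Sec31a* and *Sar1a*, had -0.10 and -0.05.

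*Mettl14* (ENSMUSG00000028114.16, 123368297 to 123386108, minus strand), 132 kb from *Synpo2*, encodes the partner of METTL3 in the enzyme that writes N6-methyladenosine (m6A) into RNA. Its level was 29.1, 26.7 and 27.7 CPM in WT and 26.3, 26.8 and 27.7 CPM in KO. These ranges overlapped, with a log2 fold change of -0.05 (95% interval -0.16 to 0.06, edgeR adjusted p = 0.465), whose sign turned with upper-quartile factors. Of 12 other m6A writers, erasers and readers, 0 were called. With no fold threshold 2 passed upwards and 4 downwards (median -0.086), beside 21.9% and 23.1% of all genes tested. These counts were 1 and 7 with library size alone, and 3 and 1 with upper-quartile factors. Of the 2 most abundant, the demethylase gene *Fto* passed the adjusted p alone (0.21), and the reader gene *Ythdf3* did not (0.06).

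*Mad2l1* (ENSMUSG00000029910.14) encodes MAD2, which holds back anaphase until every chromosome is attached to the spindle. It stood at 59.6, 63.9 and 60.5 CPM in WT and at 54.0, 52.6 and 52.0 CPM in KO. All KO libraries were below all WT libraries. The log2 fold change was -0.21 (SE 0.040, edgeR adjusted p = 0.00195), below the fold threshold.

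Of 7 other spindle checkpoint genes, 0 were called with the fold threshold. With none, 7 of 7 passed downwards (median -0.27), beside 23.1% of all genes tested, and 5 to 7 of them over the 4 scalings. The most abundant were *Bub3* at -0.12 and *Bub1b* at -0.28. The summed level of 6 proliferation markers was 934 to 958 CPM in WT and 812 to 888 CPM in KO, with *Top2a* at -0.20 and *Mki67* at -0.11, and their part in the fall was not tested.

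Per kb of annotated exon, which allows levels of different genes to be compared, the order in WT was *Myoz2* at 27.6 ± 0.71 CPM per kb, *Sec24d* at 19.4 ± 1.1, *Synpo2* at 10.4 ± 0.32 and *Mad2l1* at 7.31 ± 0.27. *Mettl14* followed at 3.75 ± 0.16 CPM per kb, *Pde5a* at 3.11 ± 0.13, *Prss12* at 2.92 ± 0.39, *Usp53* at 1.52 ± 0.19, *Ndst3* at 0.541 ± 0.059 and *Fabp2* at 0.107 ± 0.019. Of neighbours in this order, *Pde5a* and *Prss12* overlapped between libraries. In KO, *Myoz2* stood at 64.3 CPM per kb and *Synpo2* at 16.3, still below *Sec24d* at 19.0. *Ndst3*, below *Usp53* in WT, overlapped with it in KO (1.06 ± 0.22 against 1.01 ± 0.04 CPM per kb). The exon length of *Synpo2* includes the exon of 8024 bases described above, so its level per kb depends on how much that exon was used.

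Together, 3 of the 9 members tested were called higher and 1 lower, where 8.31% of the 22071 genes tested were called higher and 8.39% lower (16.7% in all). With no fold threshold, 4 passed upwards and 2 downwards, beside 21.9% and 23.1% of all genes. Levels in WT and KO did not overlap for 6 of the 9, where this held for 55.9% of all genes. Without *Synpo2* and *Mad2l1*, 3 of 7 tested neighbours were called.

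Since 8 neighbours are a selection, every annotated gene around *Synpo2* was read from the same fit. Within 1 Mb of its ends lie 53 other genes, of which 18 were tested, and 3 of these were called, *Myoz2*, *Ndst3* and *Usp53*. That is 16.7%, the same share as over all genes. Between 1 and 2 Mb, 5 of 16 were called (31.25%), and between 2 and 5 Mb, 3 of 27 (11.1%). Farther out on chromosome 3 the share was 20.6% of 1099. The median log2 fold change of the 34 genes tested within 2 Mb was -0.04, and 0.03 with upper-quartile factors.

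Genes called higher and lower, and genes not called, alternated around *Synpo2*. *Myoz2* rose between *Synpo2* and *Usp53*, which fell, and *Sec24d*, *Mettl14* and *Prss12*, between *Synpo2* and *Ndst3*, were not called. The other 5 genes called within 2 Mb all lay over 1 Mb away. *F3*, which encodes tissue factor, the trigger of blood clotting, stood at 44.7, 51.5 and 40.5 CPM in WT and at 6.02, 8.32 and 7.51 CPM in KO. It fell by 2.64 on the log2 scale (SE 0.12, edgeR adjusted p = 2.65e-07).

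*Tmem56* fell from 8.57 ± 0.238 to 3.83 ± 0.231 CPM (log2 fold change -1.16, SE 0.072, edgeR adjusted p = 1.69e-06). The noncoding gene *A530020G20Rik* rose from 5.40 ± 0.749 to 12.9 ± 1.46 CPM (1.26, SE 0.11, edgeR adjusted p = 1.97e-05). It overlaps *Slc44a3* on the opposite strand, so that reads of the pair may be mixed. The pseudogene *Gm4617* fell from 14.7 ± 3.60 to 9.63 ± 1.08 CPM (-0.61, edgeR adjusted p = 0.0107), and its reads may belong to a parent copy. The long noncoding gene *Gm43608* was also called lower. Its 3 WT libraries held 36, 45 and 53 counts, and those of KO held 4, 3 and 0.

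**Figure D4:**
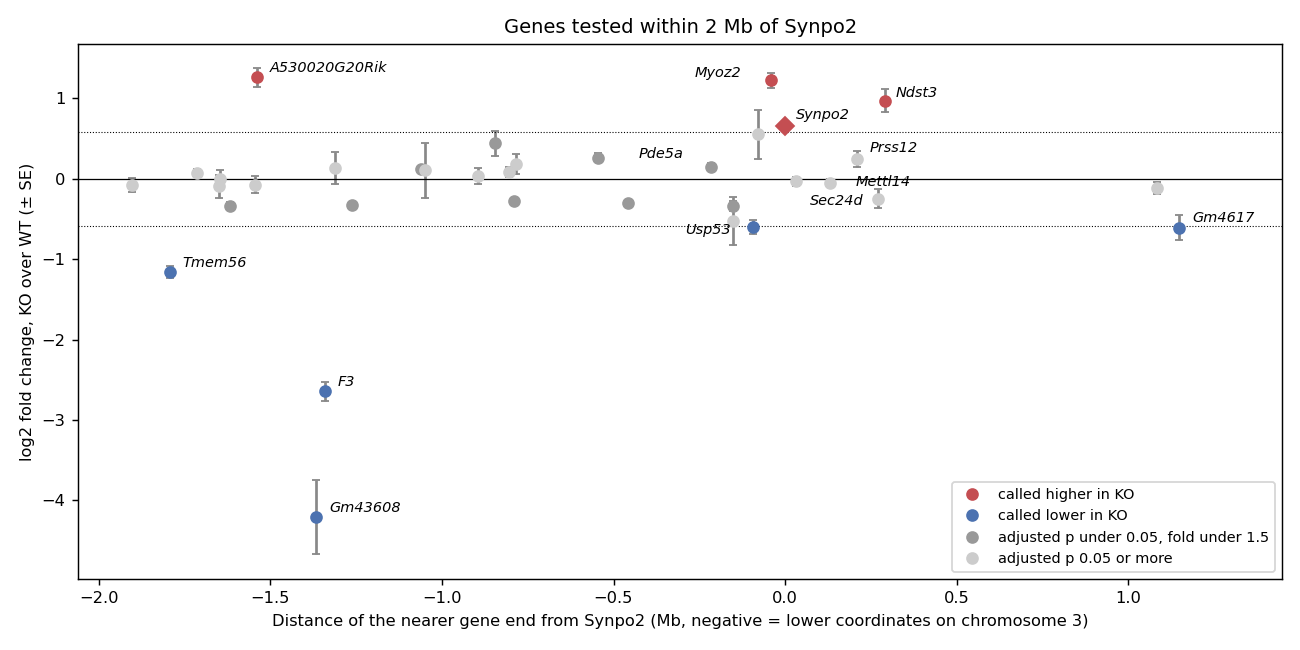
Log2 fold change of KO over WT, with standard error bars, of the 34 genes tested within 2 Mb of *Synpo2* and of *Synpo2* itself (diamond), against the distance from *Synpo2* in Mb. Red and blue points are genes called higher and lower, grey points are not called, and dotted lines mark a fold change of 1.5. Called genes stand among uncalled ones on both sides, and the 2 strongest falls, *Gm43608* and *F3*, lie over 1 Mb away.

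**Figure D5:**
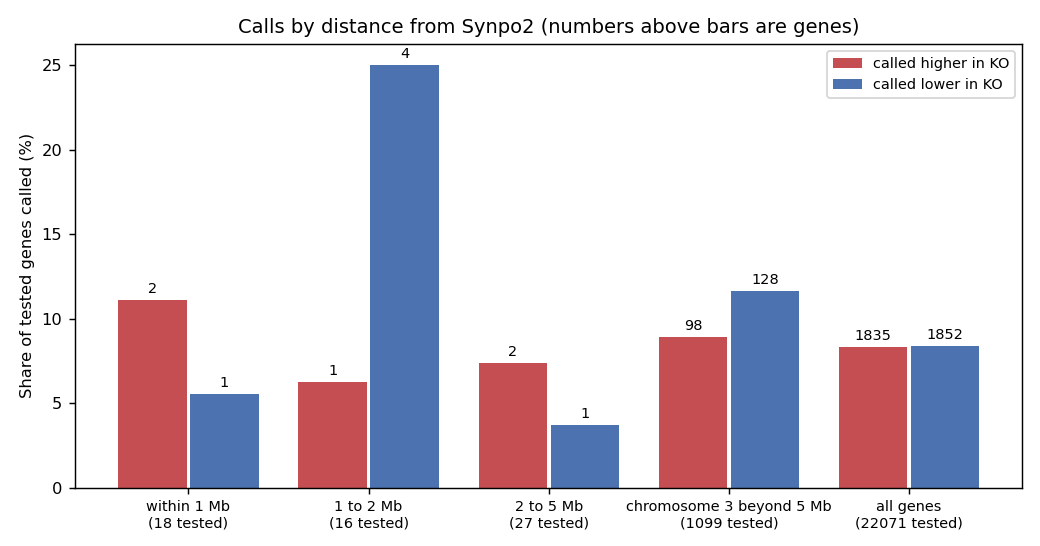
Share of tested genes called higher (red) or lower (blue) in KO, in percent, by distance from the ends of *Synpo2*, beside the rest of chromosome 3 and all genes, with the number of genes above each bar. Within 1 Mb 2 genes were called higher and 1 lower, and bars of the 3 nearest classes rest on 16 to 27 tested genes each.

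The genes most like *Synpo2* across the 6 libraries lay on other chromosomes. Among 12362 genes with a mean of at least 5 CPM, the log2 CPM of *Egr1*, *Ppp2r3a*, *Cpped1*, *Fbxo40* and *Srl* correlated best with it (Pearson's r at least 0.999), and those of *Myl1*, *Adssl1*, *Slc2a4* and *Mcrs1* with *Myoz2* (r at least 0.999). *Synpo2* and *Myoz2* correlated at 0.996. The 6 points share the split into WT and KO, and 20.4% of the genes compared had an r over 0.9 with *Synpo2*, so these values are a description only.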

How the data were processed

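RNA-seq of leg muscle from 3 WT and 3 *SYISL* KO samples was analysed. The authors trimmed 150 bp paired-end reads with Trim Galore 0.6.6, mapped them to mm10 with HISAT2 2.2.1 and deposited raw counts per gene from featureCounts 2.0.1, not normalized. The gene models, strand option and unit of counting (reads or pairs) are not given in the sources used here. Without strand, reads of overlapping antisense genes are mixed.

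In R 4.3.3, edgeR 4.0.16 (filterByExpr, TMM, quasi-likelihood F-test on genotype) was fitted to all genes, with Benjamini-Hochberg adjustment over 22071 genes. A call needed an adjusted p below 0.05 and a fold above 1.5. CPM values use TMM-scaled totals. Symbols, positions and exon lengths came from GENCODE M21, matched for 55141 of 56262 IDs. Primer sites were sought as exact matches in all transcripts, and with 1 mismatch allowed in *Synpo2* transcripts only. The text names all members, genes called within 2 Mb, up to 4 called genes by CPM per list (the 2 most abundant where none was called), the 5 genes most like *Synpo2* or *Myoz2*, and overlapping genes with counts. Of the genes most like *Myoz2*, 1 is not reported here. Members and lists were chosen with earlier results of these data known. Alternatives were other scalings, filters, thresholds and windows, DESeq2 1.42.0, limma-voom (limma 3.58.1), a replicate block, a Y-linked covariate and leaving out each library. Another used the counts deposited per sample. The fits were tested on simulated data.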

Additional observations from a re-analysis of the deposited data

How the results depend on the processing

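*Synpo2*, *Myoz2* and *Ndst3* stayed called higher in all 17 alternatives, with log2 fold changes of 0.59 to 0.73, 1.14 to 1.35 and 0.80 to 1.07, and *Mad2l1* stayed past the adjusted p (-0.28 to -0.15). The lowest value of *Synpo2*, 0.587 with library size alone, was just past the fold threshold of 0.585. Among the 17 was a fit to the counts deposited per sample, which were identical to the counts used, so its result could not differ. With a fold change over 2, 1 member was higher and 0 lower. Members called lower numbered 0 with upper-quartile factors, 2 with no filter on low counts, 2 with no fold threshold and 0 to 2 with each library left out in turn. Within 2 Mb of *Synpo2*, 7 genes were higher and 10 lower with no fold threshold, 3 were lower with a fold change over 2 and 3 with upper-quartile factors, 5 were higher in a window of 5 Mb and 1 was lower in a window of 1 Mb. Over all genes, 4838 were higher and 5098 lower with no fold threshold, and 774 higher with a fold change over 2. The split of 1835 higher and 1852 lower became 2188 and 1673 with upper-quartile factors and 1528 and 2088 with library size alone. The sign turned for *Sec24d* (0.037 with upper-quartile factors, and -0.078 to 0.011 with each library left out in turn, above 0 without KO replicate 2), *Mettl14* (0.020 with upper-quartile factors) and *Myoz2* relative to fibre markers (0.22 with the median of the list), and the cause was not tested. Same-numbered WT and KO samples deviated from their group means with correlations of -0.20, -0.13 and 0.05, so the numbers were not taken to pair them. The replicate block gave 1744 genes higher and 1777 lower, 3 members higher and 1 lower, and changed no member's call. Depth limits *Fabp2*, at 1 to 11 counts, and *Gm43608*.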
